A study of Mus musculus with 26 samples.

Results

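The 6 libraries of XY mouse gonads with the Fgf9 allele Δ225 were set against the 6 libraries with the allele Δ93, gene by gene, from raw counts. These 12 libraries were taken from the 22 of 1 count table by the genotype in their labels, out of 26 libraries in the whole series. All were gonads of embryonic stage E13.5, dissected away from the mesonephros and frozen, and all were labelled XY. The table also holds 3 wild-type (WT) libraries, which serve as a reference level, and 3 Δ306 and 4 Δ104 libraries, which entered the fit. Each group is given in the labels by the deletion's name and a biological replicate number. Not given are the boundaries of the deletions, whether embryos carried 1 or 2 copies, the strain, the litters, and whether an allele rests on 1 founder or clone. The p-values of the fit below therefore measure the spread between libraries, pooled over the groups of all 22. The permutation test of Fgf9 uses the 12 alone.

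Fgf9 encodes a secreted fibroblast growth factor. In the XY gonad it is made by the supporting cells after Sry has turned them toward the Sertoli fate, and it signals through the receptor FGFR2 to keep Sox9 on and Wnt4 down. Sertoli cells in turn build the testis cords, send hedgehog signals to fetal Leydig cells, and shield germ cells from retinoic acid. When the pathway fails in XY embryos, supporting cells take the pre-granulosa fate of the ovary, which is marked by Foxl2, Fst and WNT genes, and germ cells enter meiosis.

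The 3 RefSeq promoter stretches below (GRCm38.p6, the 250 bases before a RefSeq transcript start, 5′ to 3′ on the gene's strand) belong to genes of the comparison. Where RefSeq has several starts, the one nearest to the GENCODE gene start was taken. Fgf9 is shown because its locus carries both deletions, and its RefSeq start lies 2139 bases inside the GENCODE gene, whose longest transcript starts further upstream. Lhcgr, a fetal Leydig gene that was higher in Δ225, is shown with capitals on AGGTCA. These are only the core letters of the half-site read by NR5A1, and other nuclear receptors share them. Lef1, a pre-granulosa gene that was lower in Δ225, was searched for CTTTGA or its reverse complement, the core read by TCF and LEF factors, and these letters are not in its window. The Lhcgr window does hold that reverse complement, TCAAAG, near its 5′ end, left in lower case.
Fgf9, chr14:58072436-58072685, plus strand: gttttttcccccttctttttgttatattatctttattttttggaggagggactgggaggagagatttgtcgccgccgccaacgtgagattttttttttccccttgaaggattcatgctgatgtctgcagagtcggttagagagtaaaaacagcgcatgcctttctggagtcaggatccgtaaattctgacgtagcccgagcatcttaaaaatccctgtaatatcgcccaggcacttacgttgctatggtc
Lhcgr, chr17:88792015-88792264, minus strand: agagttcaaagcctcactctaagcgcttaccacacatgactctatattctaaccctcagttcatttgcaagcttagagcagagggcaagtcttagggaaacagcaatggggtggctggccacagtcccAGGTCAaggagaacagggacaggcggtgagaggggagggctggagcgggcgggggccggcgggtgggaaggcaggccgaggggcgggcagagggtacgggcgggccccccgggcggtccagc
Lef1, chr3:131110073-131110322, plus strand: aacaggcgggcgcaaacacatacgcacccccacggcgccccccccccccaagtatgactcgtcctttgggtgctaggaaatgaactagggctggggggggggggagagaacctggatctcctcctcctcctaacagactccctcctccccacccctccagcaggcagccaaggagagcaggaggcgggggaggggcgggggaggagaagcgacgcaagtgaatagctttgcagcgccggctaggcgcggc
Counting both strands and taking a gene as holding a motif when any of its entries did, AGGTCA was in 2 of the 5 fetal Leydig genes that have an entry, 1 of 10 pre-granulosa genes and 0 of 9 Sertoli genes, against 15.8% of 27025 genes. CTTTGA was in 2 of 5 fetal Leydig, 2 of 10 pre-granulosa and 0 of 9 Sertoli genes, against 15.8% of genes. These are matches of letters, and the files hold no binding data for these windows.

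Total counts were 11.6 to 46.8 M (M, 1e6 counts) per Δ225 library and 20.6 to 46.9 M per Δ93 library, and 4 libraries had under 25 M (Δ225 replicates 1, 2 and 3 and Δ93 replicate 1). Several libraries stood apart. The summed level of Ddx3y, Eif2s3y, Kdm5d and Uty, Y-linked genes that most XY cells express, was 0.199 CPM (counts per M counts) in Δ225 replicate 4, 0.0265 in Δ93 replicate 4 and 0.200 in Δ93 replicate 5. The other 9 libraries lay between 1.32 and 20.5 CPM, and WT between 31.2 and 77.2 CPM. These 3 libraries are labelled XY with 9, 1 and 8 counts of these genes, and each main count is therefore also given without them. Xist, the RNA of X inactivation, was not called (adjusted p 0.899) and was at 0.177 CPM in Δ225 replicate 4, 0.226 in Δ93 replicate 5 and 6.42 in Δ93 replicate 4, the highest of the 12. Mitochondrially encoded genes took 11.4% of counts in Δ225 replicate 1 and 5.33% in replicate 2, against 2.41 to 2.98% in the other 10. Erythroid genes took 5.61% and 5.72% in Δ93 replicates 1 and 4 and at most 2.11% elsewhere. Δ225 replicate 3 carried more mesonephric and heart-muscle RNA than the rest, with Cdh16 at 26.3 CPM where the other 5 Δ225 libraries had 0.174 to 0.415. Pairs among Δ225 replicates 4, 5 and 6 had correlations of 0.989 to 0.992 in log2 CPM across the genes tested. Every Δ225 pair with replicate 1, 2 or 3 lay at 0.904 to 0.959. Pairs of Δ93 libraries were at 0.926 to 0.991.

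**Figure D1:**
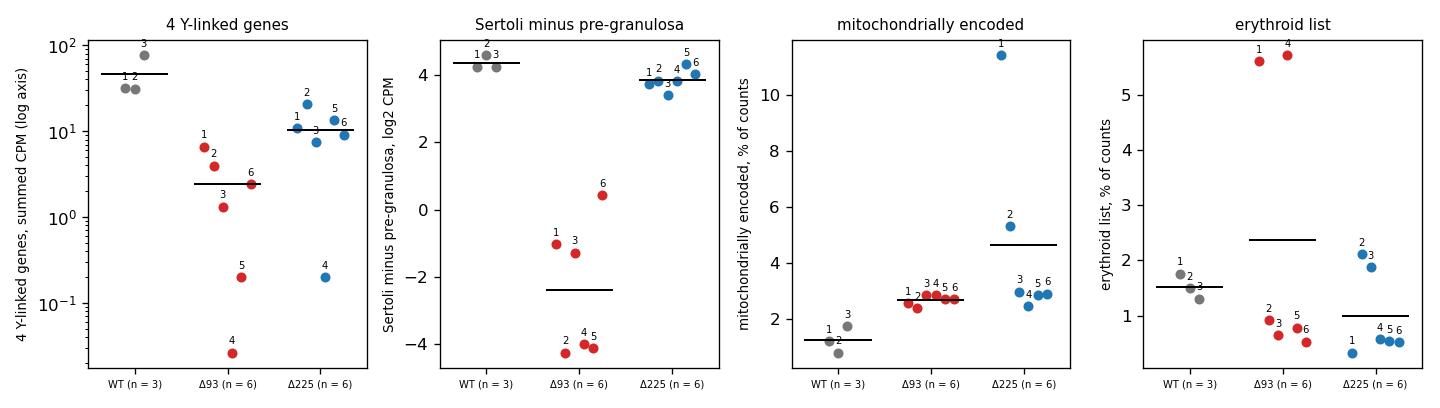
Measures of each library in WT, Δ93 and Δ225, with replicate numbers beside the points and group means as lines: the summed CPM of 4 Y-linked genes on a log axis, the mean log2 CPM of the Sertoli list minus that of the pre-granulosa list, and the percent of counts from mitochondrially encoded and erythroid genes. The Sertoli minus pre-granulosa value lies between 3.39 and 4.32 in Δ225 and between −4.25 and 0.43 in Δ93, without overlap.

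Fgf9 (ENSMUSG00000021974) lies on the plus strand of chromosome 14, from 58070547 to 58112720 in GRCm38, and its RNA was higher in Δ225 than in Δ93. The level was 5.66, 5.21, 16.5, 6.36, 4.69 and 3.69 CPM in Δ225 replicates 1 to 6 and 2.92, 2.30, 2.62, 4.75, 2.78 and 3.09 CPM in the Δ93 replicates, with WT at 9.85, 9.21 and 9.55 CPM. Replicate 3 of Δ225 was far above the other 5, replicates 5 and 6 of Δ225 lay below Δ93 replicate 4, and all Δ93 libraries lay below all WT libraries. The group values were 7.01 ± 4.73 CPM in Δ225 and 3.08 ± 0.863 CPM in Δ93 (mean ± SD, n = 6 each), a log2 fold change 1.19, SE 0.31, adjusted p 0.00992, by edgeR's quasi-likelihood test over all genes with Benjamini-Hochberg adjustment, as for every adjusted p below. A two-sided exact permutation test of log2 CPM over the 12 libraries gave a difference of 1.02 and p = 0.00649, where 924 splits allow no p under 0.00216. Without Δ225 replicate 3 the log2 fold change was 0.71 (adjusted p 0.0392). Without the 4 libraries under 25 M it was 0.68 and no longer called (adjusted p 0.0967), and without the 3 libraries of low Y-linked level it was 1.38 (adjusted p 0.0249).

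Within 1 Mb, 40 genes are annotated, Fgf9 included. Of the 20 that were tested, 3 were called higher and 2 lower, where 20.8% of all genes tested were called in either direction. Gm33321, a predicted RNA gene at chromosome 14, 58300973 to 58363816, plus strand, 188 kb past the 3′ end of Fgf9, had 0 counts in all 6 Δ225 libraries. It had 35, 64, 70, 57, 57 and 41 counts in the Δ93 libraries and 25, 13 and 17 counts in WT, and it was also counted in every Δ306 and Δ104 library. Counting error alone allows up to 3 counts over the Δ225 group, so its level was at least 86.4-fold lower than in Δ93 (adjusted p 2.03e-06). This gene was singled out after its values were seen. Toward the other side of Fgf9, Lats2, a kinase of the Hippo pathway, was higher in Δ225 (45.9 ± 3.59 against 30.8 ± 4.49 CPM, log2 fold change 0.57, SE 0.12, adjusted p 0.00201), and the 6 and 6 libraries did not overlap. Cryl1, which encodes a crystallin-like dehydrogenase, was lower (means of 19.2 against 48.5 CPM, log2 fold change −1.33, SE 0.21, adjusted p 2.25e-04). Zdhhc20, which encodes a palmitoyltransferase, was called higher by 0.33 (adjusted p 0.0351) but not in 13 of 23 alternative fits. The other 15 tested neighbours were not called.

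**Figure D2:**
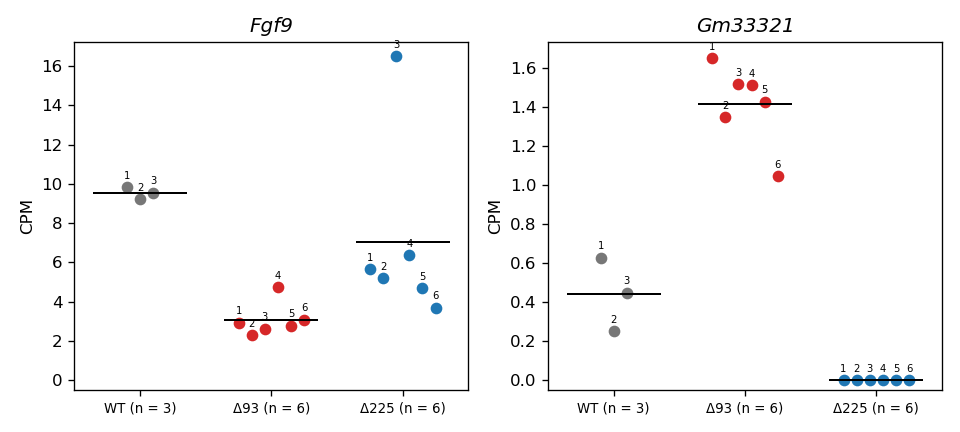
CPM of Fgf9 and of Gm33321, 188 kb from it, in each WT, Δ93 and Δ225 library, with replicate numbers beside the points and group means as lines. Fgf9 in Δ225 replicate 3 stands at 16.5 CPM above the other libraries, and Gm33321 is at 0 in all 6 Δ225 libraries.

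Across the genome the alleles differed at 4767 of 22941 genes tested, 20.8%, called at an adjusted p under 0.05. Of these, 2286 were higher in Δ225 (9.96% of genes tested) and 2481 lower (10.8%), and 2645 differed by at least 1 log2 unit. The 6 and 6 libraries did not overlap at 2516 genes, 11.0% of those tested, of which 2375 were called. The WT mean was nearer to Δ225 than to Δ93 for 70.6% of the genes called higher and 81.5% of those called lower. This is a description that uses 3 WT libraries not in the contrast. WT also stood apart from all 12 libraries, with mitochondrially encoded genes at 0.806 to 1.76% of counts against at least 2.41%. Its summed Y-linked level was at least 31.2 CPM against at most 20.5, and its processing notes name further tools. What these differences add to the nearness was not tested. The authors' deposited table of the same contrast holds 5889 genes at an adjusted p under 0.05, 2871 positive and 3018 negative. The 4711 genes in both sets have the same sign, 98.8% of the genes called here and 80.0% of those in the authors' deposited table. Without the 3 libraries of low Y-linked level 2451 genes were called, 1145 higher and 1306 lower, 2360 of them among the 4767, and without the 4 libraries under 25 M 3865.

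Sertoli genes were higher in Δ225, 9 of 17 by the test and none lower, with a median log2 fold change of 2.22 against 0.0033 over all genes tested. For this list and each list below, the share over all genes tested was 9.96% called higher and 10.8% called lower. In bulk gonads, fewer cells of a type and less RNA per cell cannot be told apart. Sox8, a SoxE factor that acts with Sox9, was at 22.9 to 46.1 CPM (median 38.3) in Δ225 and 1.93 to 15.1 CPM (median 4.16) in Δ93 (log2 fold change 2.69, SE 0.55, adjusted p 0.00163). Sox9, the factor that sets and holds the Sertoli fate, was at 75.7 to 128 CPM (median 92.7) against 9.69 to 74.1 CPM (median 27.5) (log2 fold change 1.57, SE 0.52, adjusted p 0.0376). Neither gene's groups overlapped, and Δ93 replicate 6 was the highest Δ93 library for both. The Sox9 call was lost in 8 of 23 alternative fits, among them those without the libraries of low Y-linked level and without those under 25 M. Hsd17b3, the enzyme that makes testosterone in fetal Sertoli cells, was at 28.6 to 73.3 CPM (median 55.6) against 0.10 to 12.5 CPM (median 1.63) (log2 fold change 3.84, SE 1.02, adjusted p 0.0109). It was not called without the libraries of low Y-linked level (adjusted p 0.0546). Cbln4, Mro, Ptgds, Pdgfa, Hsd17b1 and Cyp26b1 were also called higher, by 0.65 to 3.83 log2 units.

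Another 8 Sertoli genes missed the test. Amh, the hormone that removes the Müllerian ducts, was at 58.7, 405, 311, 1352, 1440.4 and 1110.1 CPM in Δ225 replicates 1 to 6 and 58.5, 1.71, 102, 2.49, 1.18 and 384 CPM in the Δ93 replicates (log2 fold change 3.09, SE 1.31, adjusted p 0.0989). Replicates 2, 4 and 5 of Δ93 were close to 0, replicates 1, 3 and 6 were higher, and Δ225 replicate 1 was as low as Δ93 replicate 1. Dhh, the hedgehog ligand of Sertoli cells, had the same 3 low Δ93 libraries, at 0.442 to 27.4 CPM over the group against 32.8 to 58.0 in Δ225, and its groups did not overlap (log2 fold change 2.29, SE 0.90, adjusted p 0.0745). Dmrt1, which supporting and germ cells both express, was at 32.7 to 69.5 against 22.5 to 75.4 CPM (adjusted p 0.598). Of the 3 Δ93 libraries with the lowest Amh, replicates 4 and 5 had low Y-linked levels and replicate 2 had 3.96 CPM. Without the libraries of low Y-linked level 5 of the 17 Sertoli genes were called, and DESeq2 on all libraries called 12. Amh and Dhh were called by DESeq2 and without Δ93 replicate 6.

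All 13 pre-granulosa genes were lower in Δ225, and at all 13 the Δ225 libraries lay below every Δ93 library, with a median log2 fold change of −2.94. Foxl2, the factor that maintains granulosa identity, was at 0.339 to 7.19 CPM (median 2.70) in Δ225 and 42.5 to 141 CPM (median 105) in Δ93 (log2 fold change −4.95, SE 0.75, adjusted p 0.000147), and no WT library was above 0.83 CPM. Follistatin (Fst), which binds activin in the fetal ovary, was at 2.17 to 14.6 CPM (median 3.35) against 79.5 to 251 CPM (median 180.3) (log2 fold change −5.13, SE 0.80, adjusted p 0.000177), and its highest Δ225 value came from replicate 3. Wnt4, the ligand of ovarian WNT signalling, was at 23.6 to 64.7 CPM (median 52.0) against 142 to 338 CPM (median 247) (log2 fold change −2.28, SE 0.34, adjusted p 0.000132), and Rspo1, which amplifies it, differed by −1.84. Axin2 and Lef1, transcripts raised by WNT and β-catenin signalling, fell by 1.36 and 0.83. Bmp2, a ligand of the early ovary, was at 8.42 to 11.3 CPM (median 8.91) against 26.1 to 67.0 CPM (median 58.7) (log2 fold change −2.53, SE 0.40, adjusted p 0.000185). The homeobox genes Irx3, Irx5 and Msx1 were lower by 4.33 to 6.33 log2 units, and Runx1, Nr0b1 and Gng13 were also called lower. Of the 13 genes, 12 were called without the libraries of low Y-linked level and 13 without those under 25 M.

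The balance of these supporting-cell genes separated the alleles. The mean log2 CPM of the Sertoli list minus that of the pre-granulosa list was 3.72, 3.83, 3.39, 3.80, 4.32 and 4.03 in Δ225 and −1.03, −4.25, −1.28, −4.00, −4.12 and 0.43 in Δ93, with WT at 4.24, 4.59 and 4.24. Δ225 and WT lay close together, and the Δ93 libraries were spread widely below them. Over 16174 genes the order was the other way, with a median SD of log2 CPM of 0.407 in Δ225 and 0.284 in Δ93.

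**Figure D3:**
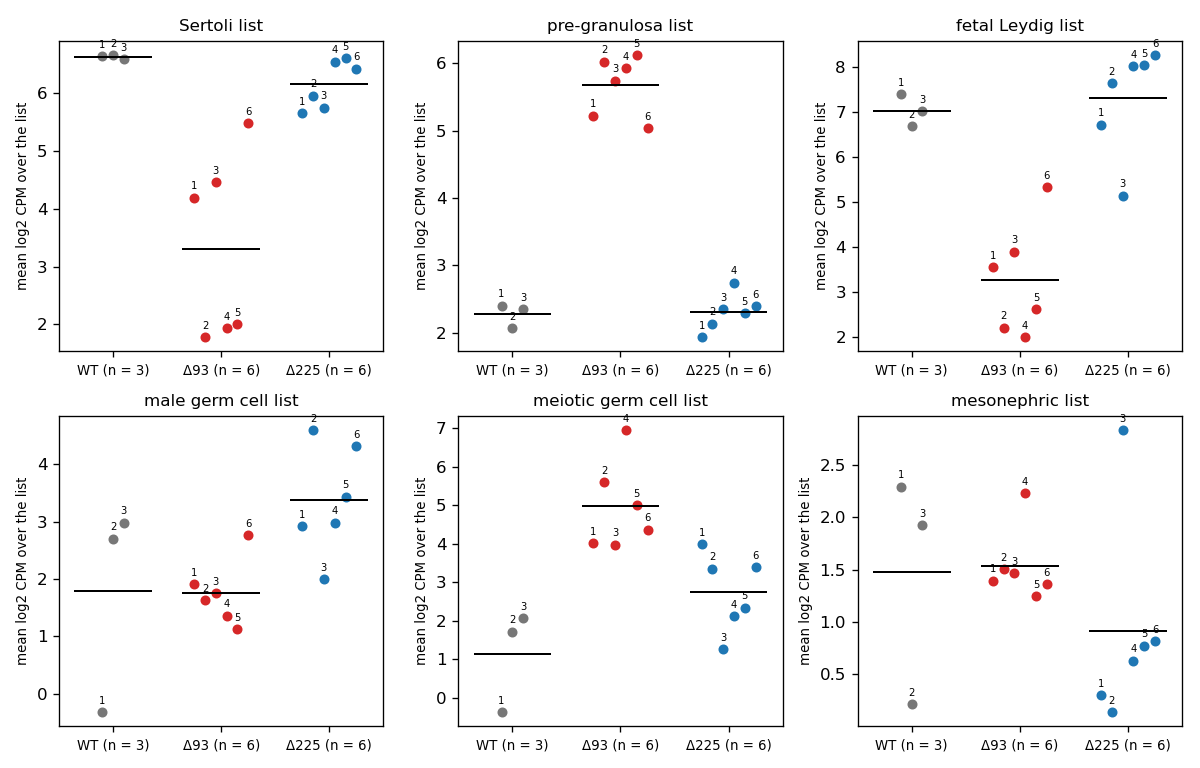
Mean log2 CPM over 6 lists (pre-granulosa, Sertoli, mesonephric, fetal Leydig, meiotic and male germ-cell) in each WT, Δ93 and Δ225 library, with replicate numbers beside the points and group means as lines. Pre-granulosa genes are higher in every Δ93 library than in every Δ225 library, while Δ225 replicate 3 stands below the other Δ225 libraries for fetal Leydig genes and above them for mesonephric genes.

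Fetal Leydig genes were higher in Δ225 at all 8 members, with a median log2 fold change of 3.71. Star, which carries cholesterol into the mitochondrion, was at 81.4 to 476 CPM (median 378) in Δ225 and 10.6 to 44.9 CPM (median 14.7) in Δ93 (log2 fold change 4.14, SE 0.55, adjusted p 6.17e-05). Cyp11a1, which makes pregnenolone from cholesterol, was at 63.0 to 934 CPM (median 667) against 1.22 to 79.4 CPM (median 8.14) (log2 fold change 4.82, SE 1.12, adjusted p 0.00448). Cyp17a1, the enzyme of the step to androgens, was at 157 to 1137 CPM (median 1000.4) against 3.69 to 101 CPM (median 8.95) (log2 fold change 5.20, SE 1.01, adjusted p 0.00114). Δ225 replicate 3 was the lowest Δ225 library for all 3 of these genes, and Δ93 replicate 6 the highest Δ93 library. Hsd3b1, the dehydrogenase of the next step, was at 151 to 538 CPM (median 476) against 24.5 to 87.1 CPM (median 40.0), with no overlap (log2 fold change 3.22, SE 0.48, adjusted p 0.000131). Lhcgr, the receptor for luteinizing hormone, was at 16.4 to 132 CPM (median 69.4) against 4.09 to 9.80 CPM (median 5.34) (log2 fold change 3.54, SE 0.49, adjusted p 7.74e-05). Insl3, the Leydig hormone of testis descent, was low in Δ225 replicates 1 to 3 (0.195, 1.91 and 0.0967 CPM) and higher in replicates 4 to 6 (12.6, 16.1 and 18.6 CPM), against 0.0632 to 1.94 CPM in Δ93 (log2 fold change 3.80, SE 1.14, adjusted p 0.0220). Its groups overlapped, and the call was lost without the libraries of low Y-linked level, where 6 of the 8 genes remained called. Scarb1 and Ren1 were higher by 2.02 and 3.63.

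Genes of adrenal-type steroid synthesis, which fetal testes also express, were higher in Δ225 at all 5 members. Cyp11b1, the 11β-hydroxylase, had the largest increase of all genes that met the naming rule, from 0 to 0.204 CPM (median 0.0133) in Δ93 to 0.532 to 23.3 CPM (median 10.2) in Δ225, with WT at 2.16, 0.369 and 1.35 CPM (log2 fold change 7.75, SE 1.12, adjusted p 9.29e-05). Cyp21a1, the 21-hydroxylase, was at 0.339 to 15.5 CPM (median 9.22) against 0 to 0.434 CPM (median 0.0356) (log2 fold change 6.32, SE 1.09, adjusted p 0.000391). All Δ225 libraries but replicate 3 were above every WT library at both genes. Mc2r, the receptor for adrenocorticotropic hormone, was at 5.27 to 15.1 CPM (median 7.74) against 0.796 to 1.84 CPM (median 1.08), without overlap (log2 fold change 2.88, SE 0.37, adjusted p 4.49e-05), and its accessory protein Mrap was at 1.26 to 7.13 CPM (median 5.72) against 0.754 to 1.86 CPM (median 1.24) (log2 fold change 1.91, SE 0.50, adjusted p 0.0105). Cyp11b2, the aldosterone synthase, was at 0 in all Δ93 libraries and at 0 to 0.439 CPM in Δ225, at least 19.1-fold higher against 3 counts over the group (adjusted p 0.00257). Cyp11b1, Cyp11b2 and Cyp21a1 have near-identical copies, and how reads shared with them were counted is not given in the sources used here. Without the libraries of low Y-linked level 3 of the 5 genes were called.

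Cholesterol synthesis and uptake genes were higher in Δ225 at 10 of 12 members, by smaller amounts (median 0.90). Cyp51, a demethylase of the sterol path, was the only one without overlap, at 79.5 to 223 CPM (median 192) against 54.4 to 70.2 CPM (median 62.5) (log2 fold change 1.54, SE 0.24, adjusted p 0.000180). Hmgcs1 and Sqle, other enzymes of the path, were higher by 0.76 and 0.81. Replicate 3 was the lowest Δ225 library for all 3 of these genes. Srebf2, a factor that turns on sterol genes, was not called (0.41, adjusted p 0.192).

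The hedgehog response of the interstitium was higher in Δ225 at 4 of 7 genes, where 9.96% of all genes tested were called higher. Hhip, a hedgehog-binding inhibitor that the signal itself induces, was at 77.2 to 101 CPM (median 87.0) against 1.33 to 21.8 CPM (median 7.88) (log2 fold change 3.16, SE 0.62, adjusted p 0.00125). Ptch1, the receptor and a standard target, was at 249 to 306 CPM (median 289) against 47.0 to 163 CPM (median 92.9) (log2 fold change 1.58, SE 0.29, adjusted p 0.000720). Gli1, the target that also transmits the signal, was at 24.6 to 91.4 CPM (median 73.6) against 3.58 to 29.5 CPM (median 12.1) (log2 fold change 2.33, SE 0.60, adjusted p 0.00941), and it was not called without the libraries of low Y-linked level. At Hhip and Ptch1 every Δ225 library was above every Δ93 library, and at Gli1 Δ225 replicate 1 was below Δ93 replicate 6. Gli2 was higher by 1.42, while Smo and Gli3 were not called, at 0.02 and 0.19.

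**Figure D4:**
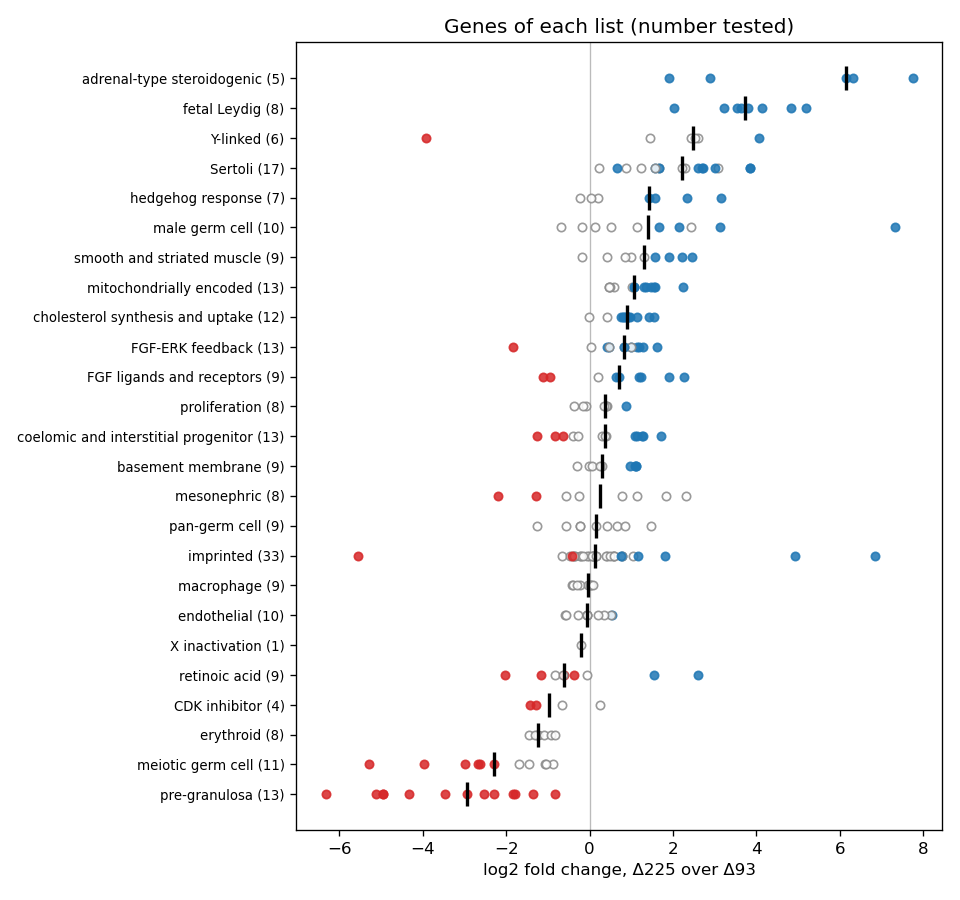
Log2 fold change of Δ225 over Δ93 for every tested gene of each list, with the number tested in brackets. Filled points passed the test (blue higher, red lower in Δ225), open points did not, and the black bar is the list's median; the lists run from −2.94 for pre-granulosa genes to 6.14 for adrenal-type steroidogenic genes.

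FGF ligands and receptors moved in both directions. Of 9 tested genes 6 were higher in Δ225 and 2 lower, and 3 were called higher without the libraries of low Y-linked level. Fgf10, a ligand of the mesenchyme, was at 5.18 to 9.96 CPM (median 6.98) in Δ225 and 0.652 to 2.59 CPM (median 1.46) in Δ93 (log2 fold change 2.25, SE 0.37, adjusted p 0.000298). The receptors went the other way at 2 genes. Fgfr2, which carries the FGF9 signal in supporting cells, was at 64.0 to 97.0 CPM (median 85.8) against 142 to 234 CPM (median 181) (log2 fold change −1.13, SE 0.19, adjusted p 0.000304), and Fgfr3 was at 6.15 to 22.3 CPM (median 15.7) against 23.6 to 38.8 CPM (median 29.3) (log2 fold change −0.95, SE 0.23, adjusted p 0.00565). Neither overlapped. Fgfr1 was not called, at 0.21 (adjusted p 0.240). Fgf16, Fgf18, Fgfr4 and Fgfrl1 were called higher by 0.64 to 1.91, with overlap at each. The calls of Fgf16, Fgf18 and Fgfrl1 were lost in 12 of 20, 10 of 23 and 6 of 23 alternative fits. For each gene, the fit without the libraries of low Y-linked level was among these. Fgf20 was too low to be tested.

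Genes that ERK signalling downstream of FGF receptors turns on were higher in Δ225 at 8 of 13 and lower at 1. Dusp6, the phosphatase that switches ERK off, was at 40.8 to 74.8 CPM (median 56.9) against 20.1 to 37.1 CPM (median 22.8) (log2 fold change 1.15, SE 0.23, adjusted p 0.00169). Spry4, a feedback inhibitor of the pathway, was at 20.3 to 52.3 CPM (median 31.1) against 7.77 to 21.6 CPM (median 13.2) (log2 fold change 1.19, SE 0.26, adjusted p 0.00301). Egr1, an early ERK target, was at 22.8 to 29.7 CPM (median 25.1) against 9.05 to 11.6 CPM (median 10.5) (log2 fold change 1.27, SE 0.20, adjusted p 0.000181). Dusp6 and Egr1 did not overlap, and Δ225 replicate 1 was within the Δ93 range for Spry4. Spry1, Spry2, Spred1, Il17rd and Etv1 were higher by 0.41 to 1.63. Dusp5, an ERK phosphatase of the nucleus, was the 1 member lower in Δ225, at 7.22 to 11.3 CPM (median 9.90) against 25.3 to 42.2 CPM (median 35.5) (log2 fold change −1.83, SE 0.29, adjusted p 0.000233). Etv4 and Etv5, ETS factors of the same pathway, were not called, at 0.04 (adjusted p 0.956) and 0.81 (adjusted p 0.0846).

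Germ-cell RNA was measured in both groups. None of the 9 pan-germ-cell genes was called in the fit of all 22 libraries by edgeR or by DESeq2, 2 had an unadjusted p under 0.05, and the groups overlapped at all 9 (median log2 fold change 0.16). Ddx4, a helicase of all germ cells, was at 59.0 to 219.6 CPM (median 151) in Δ225 and 136 to 232 CPM (median 169) in Δ93, Dazl at 164 to 596 against 305 to 503 CPM, and Pou5f1 at 30.0 to 78.7 against 10.3 to 72.8 CPM. Dppa3 was at 98.0 to 329.7 against 18.4 to 141 CPM (adjusted p 0.103), and it was called in the fits of the 12 libraries alone, with and without the replicate number as a block. Δ225 replicate 3 was the lowest Δ225 library for all 4, and WT replicate 1 had 4.27 CPM of Ddx4 where the other WT libraries had 81.3 and 139.

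Meiotic genes were lower in Δ225 at 6 of 11 members, with a median log2 fold change of −2.30. Stra8, which retinoic acid induces as germ cells enter meiosis, was at 9.27, 3.86, 0, 0.927, 0.281 and 8.98 CPM in Δ225 replicates 1 to 6 and 49.3, 219.6, 69.0, 324, 128 and 81.9 CPM in the Δ93 replicates (log2 fold change −5.28, SE 1.08, adjusted p 0.00167). Rec8, the meiotic cohesin subunit, was at 2.37 to 14.4 CPM (median 7.64) against 70.7 to 206 CPM (median 112) (log2 fold change −3.97, SE 0.56, adjusted p 9.19e-05). At both genes all Δ225 libraries lay below all Δ93 libraries. Sycp3, of the synaptonemal complex, was at 1.74 to 13.1 CPM (median 4.37) against 6.84 to 141 CPM (median 15.1) (log2 fold change −2.68, SE 0.78, adjusted p 0.0188), and Sycp1 at 6.58 to 157 CPM (median 38.4) against 42.6 to 306 CPM (median 69.5) (adjusted p 0.289). Both overlapped. Δ93 replicate 4 was the highest of the 12 libraries for Stra8, Sycp1, Sycp3, Dmc1, Prdm9 and Msh4. Without it 3 of the 11 genes were called, and 3 were called without the libraries of low Y-linked level.

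Male germ-cell genes were higher in Δ225 at 4 of 10 tested members. Nanos2, the RNA-binding protein that holds male germ cells out of meiosis, was at 1.76, 8.42, 0, 1.21, 2.60 and 6.25 CPM in the Δ225 replicates and at 0 in 4 of 6 Δ93 libraries, with the other 2 at 0.0531 and 0.0510 CPM (log2 fold change 7.32, SE 1.54, adjusted p 0.00153). Δ225 replicate 3 was also at 0, and WT was at 0, 0.427 and 0.554 CPM. Nodal, a TGF-β family signal of male germ cells, was at 3.82 to 9.12 CPM (median 6.26) against 0.292 to 4.06 CPM (median 0.759) (log2 fold change 2.15, SE 0.68, adjusted p 0.0298). Lefty2, its inhibitor and target, was at 33.4 to 86.7 CPM (median 55.9) against 0.125 to 25.4 CPM (median 1.59) (log2 fold change 3.12, SE 1.10, adjusted p 0.0485). The groups did not overlap at Lefty2 and overlapped at Nodal and Nanos2, and the calls were lost in 15 and 6 of 23 alternative fits for Lefty2 and Nodal. Piwil4, of the piRNA pathway, was not called, at 1.26 to 26.7 against 2.17 to 5.03 CPM (adjusted p 0.249), and Dnmt3l did not pass the filter on low counts. Leaving out any 1 of Δ93 replicates 2, 3, 4 and 5 left 1 of the 10 genes called, as did leaving out the libraries of low Y-linked level.

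Retinoic acid genes moved both ways, 2 higher and 4 lower of 9. Cyp26b1, the enzyme by which Sertoli cells break retinoic acid down, was at 162 to 279.6 CPM (median 204) in Δ225 and 7.27 to 99.5 CPM (median 25.5) in Δ93 (log2 fold change 2.60, SE 0.71, adjusted p 0.0133). The synthesis enzymes split. Aldh1a1 was at 444 to 980.2 CPM (median 856) against 163 to 387 CPM (median 265) (log2 fold change 1.55, SE 0.29, adjusted p 0.000815), while Aldh1a2 was lower by a small amount, at 109 to 121 CPM (median 113) against 129 to 166 CPM (median 146) (log2 fold change −0.37, SE 0.12, adjusted p 0.0343). At all 3 genes the groups did not overlap. The Aldh1a2 call was lost in 9 of 23 alternative fits. The Cyp26b1 call was lost without the libraries of low Y-linked level.

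Of 13 genes of the coelomic epithelium and interstitial progenitors, the sources of the gonad's somatic cells, 5 were higher in Δ225 and 3 lower. Nr2f2, a nuclear receptor of steroidogenic progenitors, was at 261 to 518 CPM (median 297) against 122 to 144 CPM (median 136) (log2 fold change 1.29, SE 0.21, adjusted p 0.000305). Pdgfra, a receptor of interstitial cells, was at 453 to 517 CPM (median 478) against 177 to 259 CPM (median 223) (log2 fold change 1.13, SE 0.18, adjusted p 0.000216), and Tcf21 at 101 to 192 CPM (median 161) against 51.1 to 89.2 CPM (median 71.1) (log2 fold change 1.09, SE 0.28, adjusted p 0.00811). None of these 3 overlapped, and Wnt5a was also called higher (1.71). Emx2, Upk3b and Wt1, genes of the surface epithelium and early gonad, were lower by −1.27, −0.83 and −0.64.

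Cord matrix genes were higher at 4 of 9, where 9.96% of all genes tested were called higher. Col4a1 and Col4a2, the chains of basement-membrane collagen, were higher by 1.11 and 0.97, and Fn1, fibronectin, was at 648 to 944 CPM (median 723) against 244 to 442 CPM (median 350.4) (log2 fold change 1.12, SE 0.19, adjusted p 0.000436). Nid1 was also higher (1.09), while the laminin gene Lama1 was not called (−0.31, adjusted p 0.282). Without the libraries of low Y-linked level Col4a2 was no longer called.

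Few genes of vessels and blood were called, where 20.8% of all genes tested were called. Of 10 endothelial genes 1 was called, Cdh5, the cadherin of vessel walls, at 90.5 to 175 CPM (median 133) against 70.2 to 110.1 CPM (median 90.7) (log2 fold change 0.54, SE 0.18, adjusted p 0.0374), a call lost in 11 of 23 alternative fits. Pecam1, Kdr and Tek were at −0.07, −0.27 and 0.50 log2 units and were not called. None of 9 macrophage genes was called by edgeR or DESeq2 and 0 had an unadjusted p under 0.05, with Csf1r at 6.73 to 12.2 against 6.07 to 15.3 CPM, Adgre1 at 0.878 to 3.10 against 1.53 to 4.54, C1qa at 1.27 to 3.54 against 1.93 to 8.14 and Cx3cr1 at 4.68 to 8.13 against 4.16 to 7.67. None of 8 erythroid genes was called by edgeR or DESeq2, though 4 had an unadjusted p under 0.05, 2 were called lower without Δ225 replicate 2 and 1 without Δ93 replicate 6, and all 8 estimates were below 0 (median −1.24), with the highest levels in Δ93 replicates 1 and 4. Hba-a1, Hbb-bs, Hbb-y and Alas2 had adjusted p of 0.127 to 0.300, and globin copies that share reads are uncertain.

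Of 8 mesonephric genes 2 were lower in Δ225, a share near the 20.8% of all genes tested that were called. The list's median log2 fold change was 0.26, and 5 genes were called lower without Δ225 replicate 3. Pax8 and Gata3, factors of the mesonephric duct, were lower by −1.29 and −2.20, with no overlap, while Pax2 was at 0.537 to 7.16 against 2.08 to 3.27 CPM and at 7.16 in replicate 3 (adjusted p 0.504). Lhx1 was not called (adjusted p 0.0623). The summed level of the list was 46.3 to 81.4 CPM in Δ225, 48.8 to 64.5 in Δ93 and 37.9 to 56.9 in WT, so this tissue was measurable in all 3 groups, and its part in the results above was not tested. Of 9 muscle genes 4 were called higher, where 9.96% of all genes tested were. Acta2, smooth-muscle actin, was at 165 to 292 CPM (median 258) against 40.5 to 83.0 CPM (median 65.1) (log2 fold change 1.90, SE 0.30, adjusted p 0.000214). Tnnt2, a troponin of heart muscle, was called on replicate 3 of Δ225, at 84.2 CPM against 2.48 to 3.61 in the other 5, and without it the log2 fold change was 0.04 (adjusted p 0.942). Des and Myl2 were not called, at 117 and 5.95 CPM in Δ225 replicate 3 against at most 26.2 and 1.39 in the other Δ225 libraries, and Myh11 was at −0.18.

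CDK inhibitors, which hold cells out of the cycle, were lower in Δ225 at 2 of 4 genes. Over all genes tested, 10.8% were called lower. Cdkn1b, which encodes p27, was at 58.9 to 85.4 CPM (median 68.0) in Δ225 and 132 to 269.8 CPM (median 182) in Δ93, without overlap (log2 fold change −1.42, SE 0.22, adjusted p 0.000173). Cdkn1a, which encodes p21, was at 6.94 to 42.2 CPM (median 11.6) against 24.6 to 46.3 CPM (median 40.5) (log2 fold change −1.29, SE 0.40, adjusted p 0.0285), with its highest Δ225 value in replicate 3, and it was not called without the libraries of low Y-linked level. Cdkn1c and Cdkn2b were not called. Of 8 proliferation genes 1 was called, where 20.8% of all genes tested were called. It was Mki67, at 388 to 1250.2 CPM (median 507) against 215 to 625 CPM (median 339) (log2 fold change 0.86, SE 0.29, adjusted p 0.0372), and this call was lost in 11 of 23 alternative fits. Top2a and Cdk1 were at 0.40 and 0.35 (adjusted p 0.0715 and 0.0970).

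Sry, the Y-linked switch of testis fate that is normally brief, was lower in Δ225. Its level was 0, 0.0434, 0.145, 0.0441, 0.0937 and 0 CPM in the Δ225 replicates and 1.13, 0.316, 2.32, 0.0531, 0.200 and 1.40 CPM in the Δ93 replicates, with WT at 0.327, 0.233 and 0.237 CPM (log2 fold change −3.93, SE 0.93, adjusted p 0.00412). The groups overlapped only through Δ93 replicate 4, a library of low Y-linked level, and the call held without the 3 such libraries. The other Y-linked genes lay the other way. Kdm5d was called higher (4.07, adjusted p 0.0401), on 0 to 60 counts per library. That call was lost in 9 of 20 alternative fits, among them those without those 3 libraries and without the libraries under 25 M. Ddx3y, Eif2s3y and Uty were at 1.46, 2.59 and 2.44 without passing the test.

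Of 33 imprinted genes tested, 6 were higher in Δ225 and 2 lower, a share near the 20.8% called over all genes. Mest, a paternally expressed gene of the mesoderm (chromosome 6, 30723547 to 30748465, plus strand), had the lowest adjusted p of the named genes. It was at 386, 443, 669, 695, 672 and 609 CPM in the Δ225 replicates and 6.79, 3.56, 4.99, 2.41, 3.26 and 9.26 CPM in the Δ93 replicates, with WT at 925, 721 and 698 CPM (log2 fold change 6.85, SE 0.31, adjusted p 1.30e-11). All 6 Δ93 libraries were far below all others. Copg2, which lies next to Mest on the other strand, was at 62.2 to 109 CPM (median 98.1) against 95.7 to 144 CPM (median 124) (log2 fold change −0.42, SE 0.13, adjusted p 0.0226). That call was lost in 5 of 23 alternative fits, among them those without the libraries of low Y-linked level and without those under 25 M. Phlda2, a maternally expressed growth regulator, was at 0.0883 to 0.435 CPM (median 0.268) against 5.04 to 19.3 CPM (median 11.8) (log2 fold change −5.56, SE 0.98, adjusted p 0.000478), without overlap.

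H19, a maternally expressed noncoding RNA, fell into separate levels inside Δ225. It was at 1089, 2242 and 1273 CPM in Δ225 replicates 2, 3 and 4 and at 9.76 to 11.6 CPM in replicates 1, 5 and 6, 40.8, 24.7, 30.5, 23.9, 16.9 and 14.9 CPM in the Δ93 replicates, and 1245, 9.21 and 1586 CPM in WT. Replicates 2, 3 and 4 of Δ225 and replicates 1 and 3 of WT were high. By contrast, replicates 1, 5 and 6 of Δ225 and replicate 2 of WT lay below every Δ93 library. The difference (log2 fold change 4.94, SE 1.35, adjusted p 0.0134) had its high values in these 3 Δ225 libraries, and the call was lost without the libraries of low Y-linked level and without those under 25 M. Igf2, its paternally expressed neighbour, was not called, at 87.9 to 492 against 112 to 310.3 CPM. Grb10, Plagl1, Rian and Asb4 were higher by 0.74 to 1.80, each without overlap. Peg3 was not called (−0.35), and Peg13 was at 0.0967 to 0.390 CPM in Δ225 and 0.0843 to 0.292 in Δ93, against 36.9, 5.36 and 31.0 CPM in WT.

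**Figure D5:**
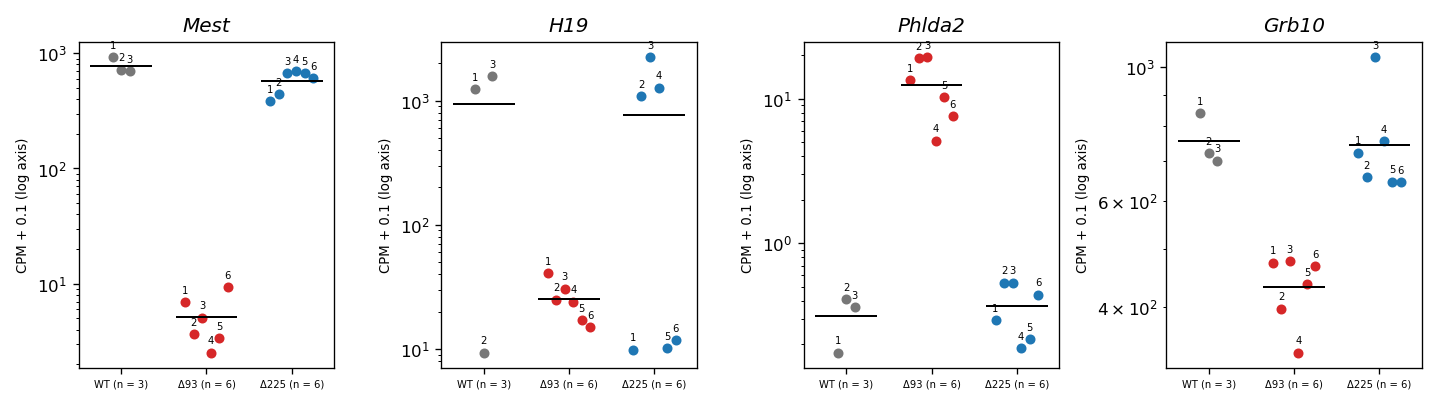
CPM plus 0.1, on log axes, of the imprinted genes Mest, H19, Phlda2 and Grb10 in each WT, Δ93 and Δ225 library, with replicate numbers beside the points and group means as lines. Mest is at most 9.26 CPM in the 6 Δ93 libraries and at least 386 in the others, and H19 is split within Δ225 and within WT.

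Mitochondrially encoded genes were called higher in Δ225 at 8 of 13 members, against 9.96% of all genes tested, with the high values in replicates 1 and 2. The mt-Nd5 level was 13617, 3894, 1928, 1829, 1898 and 1936 CPM in the Δ225 replicates and 1336 to 1943 in Δ93 (log2 fold change 1.36, SE 0.41, adjusted p 0.0229), mt-Cytb was called (1.06) and mt-Co1 was not (0.45). Leaving out Δ225 replicate 1 ended all 8 calls, and with these genes removed before normalization 4710 genes were called elsewhere.

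By size of change, 1045 genes with a mean of at least 1 CPM rose without overlap and 946 fell, and the 10 largest each way were named by rule. After Cyp11b1, Mest and Cyp17a1, the increases included Serpina5, a protease inhibitor of the male tract, at 2.08 to 11.6 CPM (median 7.70) against 0 to 0.383 CPM (median 0.0342) (log2 fold change 6.33, SE 1.02, adjusted p 0.000221). Sostdc1, an inhibitor of WNT and BMP signals, was at 11.1 to 52.0 CPM (median 49.5) against 0.274 to 5.08 CPM (median 1.47) (log2 fold change 4.53, SE 0.79, adjusted p 0.000476). Casq2, a calcium-binding protein best known from heart muscle, was at 38.2 to 69.2 CPM (median 41.2) against 0.527 to 3.83 CPM (median 1.23) (log2 fold change 4.74, SE 0.67, adjusted p 9.26e-05), high in all 6 Δ225 libraries. Kcnj16, a potassium channel, and Fbxo40 were higher by 6.50 and 5.33, and the other 2 were predicted genes.

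The largest decreases were led by regulators that Δ225 and WT libraries hardly expressed. Nr2e3, a nuclear receptor known from photoreceptors, had 0 counts in all 6 Δ225 libraries and was at 0.970 to 3.01 CPM in Δ93. Taking 3 counts over the group as the floor, Δ225 was at least 138-fold lower (adjusted p 0.000207). Isx, a homeobox factor of the intestine, was at 0 to 0.0662 CPM (median 0) against 4.82 to 12.1 CPM (median 9.10) (log2 fold change −8.44, SE 1.05, adjusted p 3.11e-05). Cdx2, another intestinal homeobox factor, was at 0 to 0.122 CPM (median 0.0352) against 2.31 to 13.0 CPM (median 5.99) (log2 fold change −6.77, SE 1.11, adjusted p 0.000244). In WT these 3 were at no more than 0.151 CPM. Hand1, a factor of heart and trophoblast, was at 0 in 5 Δ225 libraries and 0.612 to 3.12 CPM in Δ93 (log2 fold change −6.62, SE 1.31, adjusted p 0.000927), and Scrt2, a neural repressor, differed by −6.26. Chrm4, a muscarinic receptor, was at 0.0976 to 0.919 CPM (median 0.333) against 20.2 to 71.3 CPM (median 50.4) (log2 fold change −6.76, SE 0.92, adjusted p 6.75e-05), and Calb1, a calcium buffer, at 0.187 to 0.780 CPM (median 0.345) against 13.3 to 66.0 CPM (median 29.1) (log2 fold change −6.51, SE 0.78, adjusted p 2.99e-05). Mei1, a meiotic gene, ranged from 0.566 to 40.5 CPM inside Δ93 and differed by −6.34. Irx3os, antisense beside Irx3, differed by −7.07, and since the counting setting for strand is not given in the sources used here, reads of the pair may not be told apart.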

How the data were processed

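Polyadenylated RNA of microdissected E13.5 gonads was sequenced from directional (strand-marking) libraries, per the labels' protocols. STAR, DESeq2 and the build mm10 are named in the submitters' processing notes for the Δ225 and Δ93 samples, while the counting tool for these samples, its strand setting and the annotation are not given in the sources used here. The notes for WT and Δ306 also name featureCounts and Subread. The authors deposited whole-number counts per gene for 22 libraries over 57186 Ensembl identifiers, which were used as deposited. The authors also deposited, per the file headers, log2 fold changes, their standard errors and adjusted p-values of their own comparison. Symbols came from GENCODE M21 on GRCm38 for 51929 identifiers and from the deposited comparison for 4772, and coordinates from GENCODE M21.

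The test was run in R 4.3.3 with edgeR 4.0.16 (filterByExpr, TMM, quasi-likelihood F-test, Benjamini-Hochberg over all genes tested) in 1 fit of the 22 libraries with 17 residual degrees of freedom, as the contrast Δ225 minus Δ93. Called genes are those whose adjusted p is under 0.05. CPM values use TMM-scaled library sizes, log2 CPM a prior count of 2, and the standard error (SE) is the unshrunk estimate over the square root of F. Where all libraries of a group were at 0, the fold was set against 3 counts over the group. Floors cover counting error only, since reads carry no molecular identifiers. On simulated counts of 22369 genes with 200 changed, the same fit recovered 58% of 2-fold and 92% of 4-fold changes, with 10 false calls. The simulation changed far fewer genes than the 4767 called here and drew each gene independently, without libraries that stand apart. Its rates therefore do not carry over to the reported contrast.

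The text names Fgf9, genes marked as defining in 25 lists, and the 10 largest increases and 10 largest decreases among called genes with a mean of at least 1 CPM and no overlap. Other list members are named where a result turns on them. The members, lists and this rule were chosen with earlier results of these data known. DESeq2 1.42.0, other scalings, filters and left-out libraries were run as alternatives. The 2 that leave out libraries by Y-linked level (under 1 CPM) or by depth (under 25 M) were chosen after seeing the data. Values of some list members are not reported here, and they remain in the counts of their lists.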

Additional observations from a re-analysis of the deposited data

Results flagged for a closer look

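A library was set apart when its gap to the nearest of the 6 in its group passed Dixon's 95% limit on the log2 scale. This held at 26 of 218 gene and group pairs, 11.9%, where chance gives about 1 in 20, and 16 of the 28 such cases, 2 of them library measures, fell on Δ225 replicate 3.

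Δ225 replicate 3 was the highest of its group for Fgf9 (16.5 CPM against 3.69 to 6.36), Fst (14.6 against 2.17 to 3.90), Pax2 (7.16 against 0.537 to 1.02), Des (117 against 10.7 to 26.2), Cdkn1a (42.2 against 6.94 to 13.2), Kcnj16 (10.6 against 1.35 to 2.74), Casq2 (69.2 against 38.2 to 43.4) and Hand1 (0.145 against 0). It was the lowest for Dmrt1 (32.7 CPM), Rspo1 (13.0), Cyp17a1 (157), Hsd3b1 (151), Star (81.4), Cyp11b1 (0.532), Gm28382 (0.919) and Sostdc1 (11.1). For Cyp17a1 the other 5 libraries were at 897 to 1137 CPM.

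In Δ225 replicate 1, Nr2f2 was high (518 CPM against 261 to 312) and the macrophage genes Adgre1 (0.878) and C1qa (1.27) were low. Δ225 replicate 4 was set apart by Ddx3y (0.0883 CPM), Eif2s3y (0.0441) and the summed level of 4 Y-linked genes (0.199 CPM against 7.40 to 20.5).

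Δ93 replicate 6 was the lowest of its group for Bmp2 (26.1 CPM) and Nr2e3 (0.970) and the highest for Cyp11b1 (0.204), Cyp21a1 (0.434) and Serpina5 (0.383). The total of Δ93 replicate 1 was low (20.6 M against 38.3 to 46.9 M).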

How the results depend on the processing

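Of the settings tried, the count of 4767 called genes moved by more than 1.5 times under 2. At an adjusted p under 0.01 it was 2284, 1093 higher and 1191 lower in Δ225. Without the 3 libraries of low Y-linked level, chosen after seeing the data, it was 2451, 1145 higher and 1306 lower. Leaving out 1 library at a time gave 3410 to 6429 called genes, 1654 to 3124 higher and 1756 to 3305 lower. DESeq2 called 5900, and the fit of the 12 libraries alone 3579. The log2 fold change of Fgf9 kept its sign under all 23 alternatives, from 0.68 to 1.38. It was not called without the 4 libraries under 25 M (0.68, adjusted p 0.0967) or in the fit of the 12 libraries with the replicate number as a block (1.03, adjusted p 0.0511), and leaving out 1 library at a time gave 0.71 to 1.34. That block fit called 3701 genes, 1817 higher and 1884 lower. The numbers were not taken as pairs, since deviations of same-numbered libraries had correlations of −0.13 to 0.48 across genes, and 1 number of 6 matched best with itself in both groups.

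Of 153 named genes, 111 were called, 78 of them under every alternative that tested them, and none changed sign while called. Over all genes the median fold change (log2) was −0.0466 to 0.0330 over the settings. At 11.6 M counts in the shallowest library, genes under about 1 CPM rest on few reads.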

Other observations

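Some list members are not described above. Cst9, a Sertoli marker, missed the test although its groups did not overlap, at 64.4 to 123 CPM (median 102) in Δ225 and 0.758 to 58.1 CPM (median 13.2) in Δ93 (adjusted p 0.0963). Sox10, the third SoxE factor, was at 12.2 to 26.9 CPM (median 18.7) against 0.0796 to 16.3 CPM (median 5.12), with WT at 35.1 to 41.2 CPM (adjusted p 0.180). Smc1b, a meiotic cohesin subunit, was at 36.8 to 311 CPM (median 60.7) against 146 to 809.6 CPM (median 212) (adjusted p 0.0880), and its highest Δ225 value, in replicate 1, was above 4 of the 6 Δ93 libraries. Cyp26a1, another enzyme that breaks down retinoic acid, was called lower at under 1 CPM, at 0 to 0.339 CPM (median 0.10) against 0.175 to 0.867 CPM (median 0.487) (log2 fold change −2.03, SE 0.60, adjusted p 0.0182). Gata4, a factor of all gonadal somatic cells, was not called, at 143 to 422 CPM (median 299) against 274 to 438 CPM (median 366) (adjusted p 0.320).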
